A study of Mus musculus with 4 samples.

Results

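Transcription of 8 homeobox genes from the anterior and middle part of the *Hoxa* and *Hoxc* clusters was measured in single stromal cells of the mouse embryonic intestine. The genes were chosen by name and were *Hoxa4*, *Hoxa5*, *Hoxa6* and *Hoxa7* (4 genes) together with *Hoxc4*, *Hoxc5*, *Hoxc6* and *Hoxc8* (4 genes), out of 28692 genes listed in the count tables. Hox proteins bind DNA as transcription factors and set position along the head-to-tail axis of the embryo. The genes lie side by side in clusters, where the low-numbered genes tend to be active further forward than the high-numbered ones, and a gene has paralogues of the same number in the other clusters. Hox proteins often bind with cofactors of the TALE family (Pbx, Meis and Pknox proteins), and in the gut they are known for marking out segments of the mesenchyme and for acting in the enteric nervous system.

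The samples were 4 droplet libraries of untreated E12.5 embryos on a C57BL/6 background with EYFP, of which 2 held small intestine (SI) and 2 held large intestine together with the cecum (LI). Several embryos were pooled for each experiment, so that a library stands for a pool and not for 1 animal. The sort took live cells with yellow fluorescent protein and β1 integrin on them and left out those with the leukocyte marker CD45, the erythroid marker Ter119, the endothelial marker CD31 or the epithelial marker EpCAM. Regions and stage follow the sample titles, and further labels name adult tissue and the colon instead. A library held 5151 to 6881 cell barcodes and 31630548 to 62886525 unique molecular identifiers (UMIs, each standing for 1 captured transcript), and 22094 cells were kept. LI replicate 1 stood apart in depth, with a median of 4220.5 UMIs a kept cell against 8382 to 8829 in the other libraries. Pairs of libraries shared 8 to 15 barcodes. Kits reading the 3′ or the 5′ end of a transcript are both named for these libraries without saying which library had which, so that their part in any difference below was not tested.

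Clustering without any *Hox* gene gave 12 clusters, and 4 classes were named from marker genes. Fibroblast (FB)-like cells (clusters 1, 2 and 4, with 9197 cells) stand here for mesenchyme other than smooth muscle. Smooth muscle cell (SMC)-like cells (6224) were led by *Myh11* and *Cnn1*, mesothelial-like cells (1315) by *Upk3b* and *Krt19*, and neural-like cells (1246) by *Foxd3* and *Sox10* in cluster 7 and by *Cartpt* and *Stmn2* in cluster 9. *Sox10* was at 106 CPM (UMIs of a gene per 1000000 UMIs of the sum) in neural-like cells and at 0.222 in FB-like cells, and *Upk3b* was at 701 CPM in mesothelial-like and 1.08 in FB-like cells. The SMC marker *Acta2* was at 3070 CPM in SMC-like cells and at 518 CPM in FB-like cells, so that this border was less sharp. Another SMC marker, *Des*, was lower in SMC-like (49.8 CPM) than in FB-like cells (74.7 CPM). The FB markers did not set these classes apart either, since *Pdgfra* (83.9 CPM in FB-like and 102 in SMC-like cells), *Col1a1* (188 and 241) and *Col6a1* (54.0 and 80.4) were higher in SMC-like cells, while *Pdgfrb* (38.1 and 17.7) and *Col1a2* (148 and 86.7) were higher in FB-like cells. FB-like is thus a name for cells with FB markers and without leading markers of another class. Some other markers were also found outside their class, such as *Ednrb* (548 CPM in neural-like and 64.9 in SMC-like cells), *Krt18* (361 CPM in mesothelial-like and 37.7 in FB-like cells) and *Pdpn* (36.7 CPM in mesothelial-like and 32.3 in neural-like cells). A further 4112 cells, 15.4% to 20.7% of a library, lay in unnamed clusters and entered only the alternatives and the values by cluster.

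In the mouse build mm10 (GRCm38) the *Hoxa* members lie on the minus strand of chromosome 6 and the *Hoxc* members on the plus strand of chromosome 15. In the GENCODE annotation *Hoxa4* (ENSMUSG00000000942) spans chr6:52189671-52191753, *Hoxa5* (ENSMUSG00000038253) chr6:52201754-52204587, *Hoxa6* (ENSMUSG00000043219) chr6:52206288-52208722 and *Hoxa7* (ENSMUSG00000038236) chr6:52214491-52221854. *Hoxc4* (ENSMUSG00000075394) spans chr15:103018934-103036852, *Hoxc5* (ENSMUSG00000022485) chr15:102967443-103017429, *Hoxc6* (ENSMUSG00000001661) chr15:102998257-103011881 and *Hoxc8* (ENSMUSG00000001657) chr15:102990607-102994111. Models of *Hoxc5* share exon bases with *Hoxc10* on the same strand, so the *Hoxc5* counts are less certain than the others. *Hoxa4* and *Hoxa7* overlap the antisense genes *Gm29430* and *Hoxaas3*, and whether counting used strand is not given in the sources used here.

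Promoter sequences (250 bases before to 50 after the start, build GRCm38.p6, from RefSeq) were at hand for 4 of the 8 members, and those of *Hoxa5*, *Hoxa7* and *Hoxc4* are shown because each held a match to one of the motifs searched. Capitals mark AGGTCA, a half-site of retinoic acid receptors, in *Hoxa5* (1 match) and, read on the other strand, in *Hoxc4* (1 match), and TTTATG, the core bound by CDX factors, in *Hoxa7* (2 matches).
Hoxa5, chr6:52204538-52204837, minus strand: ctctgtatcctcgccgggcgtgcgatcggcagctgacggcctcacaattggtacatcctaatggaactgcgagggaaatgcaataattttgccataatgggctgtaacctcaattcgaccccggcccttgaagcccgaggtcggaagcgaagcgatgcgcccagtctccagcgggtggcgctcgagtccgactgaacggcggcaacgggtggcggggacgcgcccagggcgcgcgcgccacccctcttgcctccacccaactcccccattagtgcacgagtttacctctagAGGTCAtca
Hoxa7, chr6:52218524-52218823, minus strand: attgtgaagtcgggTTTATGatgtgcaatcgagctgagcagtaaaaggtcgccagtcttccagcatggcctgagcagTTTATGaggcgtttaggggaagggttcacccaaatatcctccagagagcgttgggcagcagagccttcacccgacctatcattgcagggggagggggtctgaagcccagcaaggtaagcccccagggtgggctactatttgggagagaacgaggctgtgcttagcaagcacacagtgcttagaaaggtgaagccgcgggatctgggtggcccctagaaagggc
Hoxc4, chr15:103034145-103034444, plus strand: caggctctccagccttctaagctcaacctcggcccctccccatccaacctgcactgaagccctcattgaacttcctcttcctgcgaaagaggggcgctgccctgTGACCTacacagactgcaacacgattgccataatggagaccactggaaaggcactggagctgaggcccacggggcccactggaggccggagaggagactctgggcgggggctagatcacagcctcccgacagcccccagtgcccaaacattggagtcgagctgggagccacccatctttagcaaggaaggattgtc
On either strand, AGGTCA was in 16.3% and TTTATG in 11.9% of all 32851 promoters of the table, and neither motif overlaps the other. The composite Hox-Pbx motif TGATNNAT (8.85% of all promoters) and TATAAA (13.6%) were in none of the 4 windows, *Hoxa6* included. The windows of *Hoxa7* and *Hoxc4* lie inside the GENCODE spans given above and so belong to internal starts. Those of *Hoxa5* and *Hoxa6* lie at the outer starts of their spans. The windows of *Hoxa5* and *Hoxa6* held 29 and 26 CpG pairs against 9 in *Hoxa7* and 9 in *Hoxc4*, where the median over all promoters was 7. This contrast is therefore one between unlike kinds of start. These matches describe letters only.

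The members also differed in matches to the seed of miR-196, a microRNA whose genes lie inside Hox clusters and which is known to act on several *Hox* transcripts. Its mature forms from RefSeq, with the seed (bases 2 to 8) in capitals, were as follows, and *Mir196b* lies at chr6:52230129-52230150 on the minus strand and *Mir196a-2* at chr15:102973365-102973386 on the plus strand.
mmu-miR-196a-5p: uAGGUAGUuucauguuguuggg
mmu-miR-196b-5p: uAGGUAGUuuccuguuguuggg
The reverse complement of this seed, ACTACCT, was found in the 3′UTR of 4 of the 8 members, compared with 5.93% of 21685 genes with a 3′UTR in GENCODE. *Hoxa7* held 4 matches, *Hoxc8* 2, and *Hoxa4* and *Hoxa5* 1 each, whereas the letters were not in the 3′UTRs of *Hoxa6* (80 bases in that annotation), *Hoxc4*, *Hoxc5* and *Hoxc6*. The first match of each of the 4 genes is printed with its flank, the match in capitals.
Hoxa4: agcactggccatcgACTACCTt
Hoxa5: atatttttattcaaACTACCTa
Hoxa7: ggcacagccaaaatACTACCTa
Hoxc8: cactcacaactctaACTACCTg
MicroRNA was not measured in these libraries.

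To ask whether the anterior and middle genes of both clusters differ between gut regions, UMIs were added up over the FB-like cells of a library (12566925 to 20595683 UMIs) and the regions compared. In FB-like cells all 4 *Hoxc* members rose in SI over LI, whereas of the *Hoxa* members 1 rose (*Hoxa4*), 1 fell (*Hoxa6*) and 2 did not pass the test (*Hoxa5* and *Hoxa7*). Thus 6 of 8 members were called at an adjusted p under 0.05, against 2.75% of 13503 genes tested (371 genes). Since the members were chosen with earlier results of these data known, this count is a description. The median log2 fold change was 1.42 over the *Hoxc* members, 0.36 over the *Hoxa* members and 0.01 over all genes tested. With 2 libraries a region no exact test on a single gene can go below p = 0.333, so calls rest on the spread shared across genes in edgeR's quasi-likelihood test, and since no label ties a library to an animal these p-values measure the spread between pools.

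**Figure D1:**
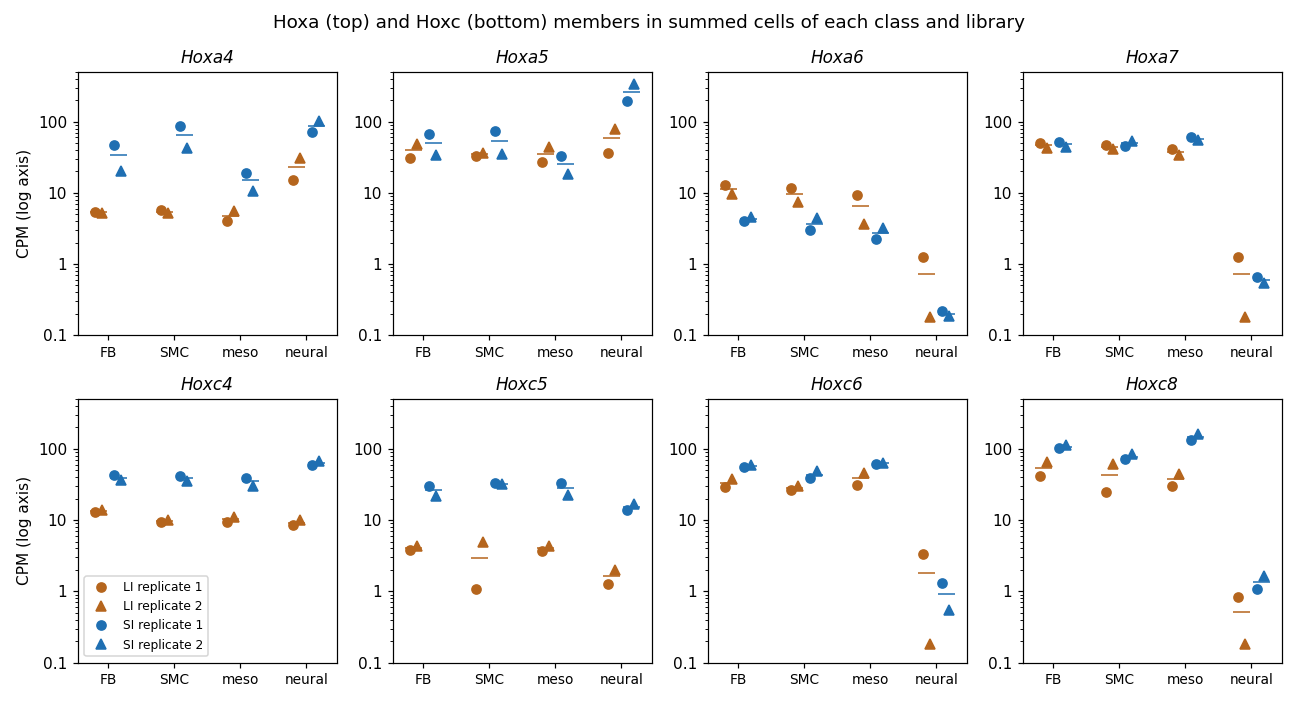
Level of each member in CPM (log axis) in the summed cells of each class, for each library (points) with the mean of each region (short lines). *Hoxc4* and *Hoxc5* were higher in both SI libraries than in both LI libraries in all 4 classes, and *Hoxa6*, *Hoxa7*, *Hoxc6* and *Hoxc8* dropped to a few UMIs a library in neural-like cells.

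*Hoxa4*, which in the mouse is known from its role in the cervical skeleton, was at 5.33 and 5.29 CPM in LI replicates 1 and 2 and at 47.0 and 20.4 CPM in SI replicates 1 and 2. The LI libraries were nearly equal, whereas SI replicate 1 lay well above SI replicate 2, and the regions did not overlap. Its log2 fold change was 2.82 ± 0.39 (SE, adjusted p = 0.0063), and 2.07 without SI replicate 1. *Hoxa5*, required for lung development and active in enteric neurons, was at 30.6 and 48.6 CPM in LI and at 67.5 and 33.8 CPM in SI, so that the regions overlapped (log2 fold change 0.51 ± 0.34, adjusted p = 0.55). The higher mean of *Hoxa5* in SI rested on SI replicate 1, since without that library the log2 fold change was -0.10, and without LI replicate 2 it was 0.83 with an adjusted p of 0.017.

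*Hoxa6* ran the other way, at 13.1 and 9.67 CPM in LI and at 4.06 and 4.52 CPM in SI, and it was the single member that fell in SI (log2 fold change -1.26 ± 0.26, adjusted p = 0.041). These levels rest on 81 to 183 UMIs a library, and both LI values lay above both SI values. *Hoxa7* was at 50.3 and 42.4 CPM in LI and at 52.4 and 44.3 CPM in SI, with overlapping regions and a log2 fold change of 0.20 ± 0.20 (adjusted p = 0.72). Neighbours in the *Hoxa* cluster thus had unlike values, with *Hoxa4* higher in SI, *Hoxa6* higher in LI and *Hoxa7* in between.

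Among the *Hoxc* members, *Hoxc5* had the largest difference, with 3.82 and 4.39 CPM in LI against 30.5 and 22.0 CPM in SI (log2 fold change 2.81 ± 0.26, adjusted p = 0.00073). *Hoxc4* was at 12.9 and 14.0 CPM in LI and at 42.6 and 36.7 CPM in SI (1.70 ± 0.20, adjusted p = 0.0028). For both genes the replicates of a region lay close together and the regions far apart. *Hoxc6*, whose paralogues mark the thoracic level of the body axis, was at 29.6 and 37.6 CPM in LI and at 56.6 and 60.2 CPM in SI (0.94 ± 0.19, adjusted p = 0.037). *Hoxc8*, a gene of the thoracic skeleton and of motor neurons, was at 41.1 and 66.0 CPM in LI and at 104 and 112 CPM in SI (1.15 ± 0.22, adjusted p = 0.033). These calls were the weakest. That of *Hoxc6* was lost without SI replicate 1 (adjusted p = 0.056) or SI replicate 2 (0.081), and after thinning to 3000 UMIs a cell *Hoxc6* and *Hoxc8* both missed the threshold (adjusted p = 0.17 and 0.063). With the unnamed clusters included *Hoxc8* also missed it (1.00, adjusted p = 0.0502).

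In FB-like cells the difference between regions was smaller for the higher-numbered members of the *Hoxc* cluster, at 1.70 and 2.81 on the log2 scale for *Hoxc4* and *Hoxc5* against 0.94 and 1.15 for *Hoxc6* and *Hoxc8*. SMC-like cells had the same order, whereas in mesothelial-like cells *Hoxc8* (2.06) lay above *Hoxc4* (1.85), and this order was not tested. Further along both clusters the direction in FB-like cells was the opposite. Of the 12 other genes of the clusters that were listed for comparison, 10 were tested in FB-like cells, of which 1 rose in SI (*Hoxa2*) and 7 fell. *Hoxa9* was at 159 and 124 CPM in LI and at 2.40 and 5.39 CPM in SI (log2 fold change -5.04 ± 0.36, adjusted p = 0.00020). *Hoxa11* had 1382 UMIs in both LI libraries together and 2 in SI, and *Hoxa13* had 322 and 3, which by CPM are ratios of LI over SI of 890 (95% exact counting interval 246 to 7360) and 138 (46.9 to 674). *Hoxc8*, which rose in SI, therefore stood next to a gene with the reverse difference, *Hoxc9* (75.4 and 53.6 CPM in LI, 19.8 and 22.2 in SI), whereas *Hoxa7*, next to *Hoxa9*, was not called.

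**Figure D2:**
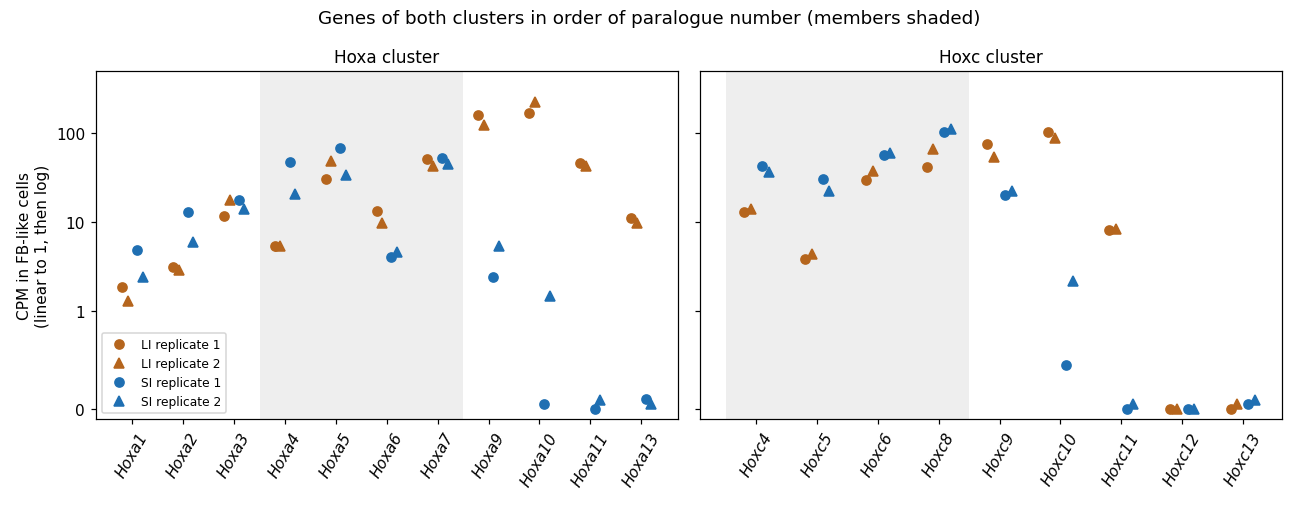
Level in CPM (linear to 1, then log) in FB-like cells of each library, for the *Hoxa* and *Hoxc* genes in order of paralogue number, with the 8 members on a grey ground. SI libraries were above LI libraries for *Hoxa4* and all 4 *Hoxc* members, and LI libraries were above SI libraries for *Hoxa6* and from *Hoxa9* to *Hoxa13* and *Hoxc9* to *Hoxc11*. Levels are to be compared within a gene.

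In SMC-like cells (376 of 12612 genes called, 2.98%) the calls were fewer and had the same members in front. *Hoxa4*, *Hoxc4* and *Hoxc5* rose in SI, and the other 5 members did not pass the test. *Hoxa4* was at 5.78 and 5.13 CPM in LI and at 87.7 and 43.0 CPM in SI (3.75 ± 0.37, adjusted p = 0.0029), and its log2 fold change was 3.15 without SI replicate 1. *Hoxc5* was at 1.07 and 4.85 CPM in LI and at 33.1 and 31.8 CPM in SI (3.49 ± 0.45, adjusted p = 0.0079), where the lowest value rests on 7 UMIs. It was 2.90 without LI replicate 1 and 5.06 without LI replicate 2. *Hoxc4* was at 9.28 and 10.2 CPM in LI and at 42.1 and 35.8 CPM in SI (2.15 ± 0.21, adjusted p = 0.0026). In all 3 genes the regions were far apart, though the SI libraries differed among themselves for *Hoxa4*.

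*Hoxc8* (24.5 and 60.4 CPM in LI, 71.1 and 85.1 CPM in SI, adjusted p = 0.22) and *Hoxc6* (26.3 and 30.4 CPM in LI, 38.7 and 48.3 CPM in SI, adjusted p = 0.11) had regions that did not overlap but were not called in SMC-like cells. LI replicate 2 lay close to SI for *Hoxc8*, and without it both genes passed (adjusted p = 6.5e-05 and 0.022). *Hoxc8* also passed without SI replicate 1 (0.0086) and by DESeq2 (0.048). *Hoxa6* was at 11.9 and 7.51 CPM in LI and at 2.98 and 4.40 CPM in SI (-1.20 ± 0.34, adjusted p = 0.13), and passed without LI replicate 2 (0.0087) or SI replicate 2 (0.038). *Hoxa5* (33.0 and 36.5 CPM in LI, 72.8 and 35.1 CPM in SI) was not called (0.79 ± 0.32, adjusted p = 0.30) and passed without SI replicate 2 (1.22, adjusted p = 0.0090), which left the high value of SI replicate 1. *Hoxa7* was at 40.7 to 54.2 CPM in all 4 libraries (0.35 ± 0.20, adjusted p = 0.46).

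In mesothelial-like cells, the cells of the outer lining, the *Hoxc* members led (96 of 10651 genes called, 0.901%). *Hoxc4*, *Hoxc5* and *Hoxc8* rose in SI and no *Hoxa* member was called. *Hoxc8* went from 30.3 and 44.3 CPM in LI to 131 and 164 CPM in SI (2.06 ± 0.24, adjusted p = 0.0025), *Hoxc5* from 3.66 and 4.39 to 33.7 and 22.8 CPM (2.89 ± 0.37, adjusted p = 0.0039) and *Hoxc4* from 9.32 and 11.2 to 39.6 and 30.4 CPM (1.85 ± 0.30, adjusted p = 0.016). These were separations of several fold with little spread inside a region, though the LI values of *Hoxc5* rest on 11 UMIs each. After thinning to 3000 UMIs a cell the call of *Hoxc4* was lost (1.49, adjusted p = 0.14). *Hoxc6* (31.3 and 45.9 CPM in LI, 61.5 and 63.3 in SI, 0.77 ± 0.24, adjusted p = 0.24) passed without LI replicate 2 (0.019). *Hoxa4* was low throughout, with 12 to 42 UMIs a library, at 3.99 and 5.59 CPM in LI and 19.1 and 10.8 CPM in SI (1.74 ± 0.42, adjusted p = 0.098), and passed without LI replicate 2 (0.023) or SI replicate 2 (0.032).

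*Hoxa5* was at 27.0 and 43.9 CPM in LI against 33.3 and 18.4 CPM in SI of mesothelial-like cells (-0.35 ± 0.33, adjusted p = 0.80), with a log2 fold change of 0.00 without LI replicate 2. *Hoxa7* was at 41.3 and 33.9 CPM in LI and at 60.1 and 55.1 CPM in SI (0.68 ± 0.24, adjusted p = 0.30). *Hoxa6*, with 28 and 9 UMIs in the LI libraries and 5 in each SI library, was too low to be tested. Mesothelial-like cells made up 10.4% of LI replicate 1 and 2.77% to 5.27% of the other libraries, so that the sums of SI replicate 2 held only 1578757 UMIs.

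In neural-like cells (35 of 11283 genes called, 0.31%) only the paralogues of groups 4 and 5 had enough UMIs to be tested, and all 4 rose in SI. *Hoxa5* went from 36.7 and 80.0 CPM in LI to 195 and 334 CPM in SI (2.08 ± 0.34, adjusted p = 0.047), and *Hoxa4* from 15.2 and 30.5 to 72.3 and 102 CPM (1.81 ± 0.30, adjusted p = 0.046). *Hoxc4* went from 8.45 and 10.0 CPM to 60.4 and 67.6 CPM (2.70 ± 0.23, adjusted p = 0.0018), and *Hoxc5* from 1.27 and 1.97 to 13.9 and 16.9 CPM (3.08 ± 0.38, adjusted p = 0.015). Both LI values of *Hoxc5* are low and rest on 3 and 11 UMIs. The LI libraries differed most for *Hoxa4* and *Hoxa5*, where LI replicate 2 was above LI replicate 1, and both stayed below SI. All 4 calls were lost without SI replicate 2, where 0 of 11419 genes were called (287 had an unadjusted p under 0.05) and the fold changes of the 4 members still ran from 1.59 to 2.96 on the log2 scale. The call of *Hoxc5* was also lost after thinning to 3000 UMIs a cell (adjusted p = 0.098), and without LI replicate 2 the values of *Hoxa4* and *Hoxa5* were 2.40 and 2.73.

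**Figure D3:**
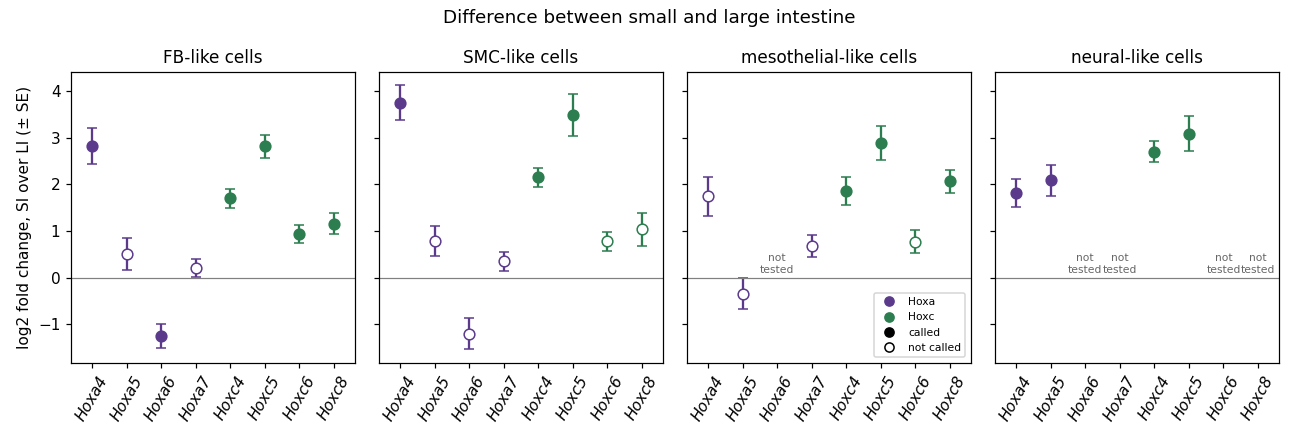
Log2 fold change of SI over LI for each member in each class (points) with its SE, filled where the adjusted p was under 0.05. All *Hoxc* values shown lie above 0 and *Hoxc4* and *Hoxc5* are filled in every class, whereas the *Hoxa* values spread from -1.26 for *Hoxa6* in FB-like cells to 3.75 for *Hoxa4* in SMC-like cells.

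Counting members whose 2 SI libraries both lay above both LI libraries gave 5 of 8 in FB-like cells, where 12.8% of tested genes had that order, and 5 of 8 in SMC-like cells (12.0%). It gave 6 of 8 in mesothelial-like cells (16.5%) and 5 of 8 in neural-like cells (24.4%), where *Hoxc8* was counted with 3 UMIs in LI and 14 in SI. Of the *Hoxc* members 4, 4, 4 and 3 of 4 had the order in these classes, and of the *Hoxa* members 1, 1, 2 and 2 of 4. The classes come from the same 4 libraries, so these counts are not independent of each other. As the members were chosen with earlier results of these data known, the counts are a description.

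Whether a member's level depends on the class was asked with the library as a block. Between SMC-like and FB-like cells 0 of 8 members were called by edgeR or by DESeq2, although 1558 of 13283 genes were (11.7%). At an unadjusted p under 0.05 there were 3, *Hoxa4* (log2 fold change 0.73 ± 0.31, SMC-like over FB-like), *Hoxc8* (-0.43 ± 0.16) and *Hoxc6* (-0.34 ± 0.16), with adjusted p of 0.16, 0.11 and 0.20. *Hoxc8* passed without LI replicate 2 (0.041) and *Hoxc6* without LI replicate 1 (0.043). In mesothelial-like against FB-like cells 5221 genes were called (39.3%) but of the members only *Hoxa6*, which fell (-0.79 ± 0.22, adjusted p = 0.011), on 47 UMIs. *Hoxa4* had a log2 fold change of -0.84 ± 0.48 (adjusted p = 0.18). The call of *Hoxa6* was lost without LI replicate 2 (0.12) or SI replicate 1 (0.059).

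Neural-like cells differed from FB-like cells in 7919 genes (59.6%) and in 7 of the 8 members, of which 2 *Hoxa* members rose and 5 members of both clusters fell. *Hoxa4* and *Hoxa5* rose in neural-like cells (log2 fold change 1.79 ± 0.33 and 1.73 ± 0.38, adjusted p = 0.00030 and 0.0012), and *Hoxa5* was at 1.03 without SI replicate 2. The value of *Hoxa5* averages unlike regions. Neural-like cells had 195 and 334 CPM of it against 67.5 and 33.8 CPM in FB-like cells of SI. In LI they had 36.7 and 80.0 CPM against 30.6 and 48.6 CPM. *Hoxc4* was not called over both regions (0.29 ± 0.16, adjusted p = 0.13), a value that averages opposite differences, since neural-like cells had more than FB-like cells in SI (60.3 and 67.5 CPM against 42.6 and 36.7 CPM) and less in LI (8.45 and 10.0 CPM against 12.9 and 14.0 CPM). It was called higher without LI replicate 1 (0.045) or LI replicate 2 (0.038). *Hoxc5* fell (-0.93 ± 0.24, adjusted p = 0.0037), a call that was lost without SI replicate 1 (0.079) and after thinning to 3000 UMIs a cell (0.14).

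*Hoxa6*, *Hoxa7*, *Hoxc6* and *Hoxc8* had few UMIs in neural-like cells as a whole. Over the 4 libraries *Hoxa7* had 10 UMIs in neural-like cells (0.556 CPM) against 3393 in FB-like cells (47.1 CPM), which is 84.7-fold lower (95% exact counting interval 46.0 to 177). *Hoxc8* had 17 UMIs (0.945 CPM) against 6142 (85.3 CPM), 90.2-fold lower (56.3 to 155), and *Hoxc6* had 18 (1.00 CPM) against 3451 (47.9 CPM), 47.9-fold lower (30.3 to 80.9). *Hoxa6* had 6 UMIs (0.333 CPM) against 521 (7.23 CPM), 21.7-fold lower (9.90 to 59.4). All 4 fell by the test across libraries (adjusted p from 2.4e-11 to 3.2e-08). These intervals cover counting error only.

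The clusters of neural-like cells were also taken apart. In cluster 7, led by *Foxd3* and *Sox10*, *Hoxa5* was at 22.6 and 58.3 CPM in LI and 152 and 259 CPM in SI, and in cluster 9, led by *Cartpt* and *Stmn2*, at 113 and 175 CPM in LI and 345 and 565 CPM in SI. Each library had more *Hoxa5* in cluster 9 than in cluster 7. *Hoxc8* had 17 UMIs in cluster 7 and 0 in cluster 9, and *Hoxa7* had 8 and 2. *Hoxc6* had 6 UMIs in cluster 7 and 12 in cluster 9, of which 8 lay in LI replicate 1 (21.5 CPM there, against 29.6 CPM in its FB-like cells), and *Hoxa6* had 1 and 5, of which 3 lay in LI replicate 1 (8.06 CPM there, against 13.1 CPM in its FB-like cells). These values rest on 3 cells with a *Hoxc6* UMI and 2 cells with a *Hoxa6* UMI among the 44 cells of cluster 9 in that library, and the other cells were at 0. *Hoxc4* was at 3.51 and 9.93 CPM in LI against 44.1 and 59.0 CPM in SI of cluster 7, and at 34.9 and 10.6 CPM in LI against 118 and 94.1 CPM in SI of cluster 9.

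A test of whether the difference between regions itself differed from that in FB-like cells called few members. For SMC-like cells it called 0 of 8 by edgeR or by DESeq2 (52 of 13283 genes, 0.391%), and at an unadjusted p under 0.05 there was 1, *Hoxc4* (0.46 ± 0.17 on the log2 scale, adjusted p = 0.54), followed by *Hoxa4* (0.96 ± 0.52) and *Hoxc5* (0.68 ± 0.36). For mesothelial-like cells (174 genes, 1.31%) it called *Hoxc8*, with a larger difference by 0.90 ± 0.21 (adjusted p = 0.044). That call was lost without LI replicate 2 (0.054), SI replicate 1 (0.14) or SI replicate 2 (0.32). Not called for mesothelial-like cells was *Hoxa7* (0.50 ± 0.21, unadjusted p = 0.031, adjusted p = 0.31). For neural-like cells (1417 genes, 10.7%) it called *Hoxa5* (1.72 ± 0.43, adjusted p = 0.017) and *Hoxc4* (1.05 ± 0.20, adjusted p = 0.0027). *Hoxa5* missed the threshold without LI replicate 1 (0.066), LI replicate 2 (0.059) or SI replicate 2 (0.80 on the log2 scale, 0.066), and its difference was 2.51 without SI replicate 1. *Hoxc4* missed it without LI replicate 2 (0.062). *Hoxa4* had the opposite sign (-0.87 ± 0.47, adjusted p = 0.27) and passed without SI replicate 2 (-1.72, adjusted p = 0.0032).

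Levels also differed inside the FB-like class. *Hoxa7* was at 69.7 and 54.0 CPM in LI against 52.9 and 40.9 CPM in SI of cluster 1, led by *Scx* and *Igfbp5*, so that LI was higher there. In cluster 2, led by histone genes, it was at 37.5 and 36.3 CPM in LI and 52.5 and 48.7 CPM in SI, and in cluster 4, led by *Anxa2*, *Tac2* and *Wnt4*, at 26.8 and 21.0 CPM in LI and 50.8 and 44.6 CPM in SI. The order of the regions was thus reversed between cluster 1 and the other 2 clusters, a difference that was not tested. Cluster 1 made up 53.9% and 57.7% of FB-like cells in LI and 41.1% and 46.4% in SI, so it weighed more in the LI sums.

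*Hoxa4*, *Hoxc4*, *Hoxc5* and *Hoxc6* were higher in both SI libraries than in both LI libraries in each of FB-like clusters 1, 2 and 4. *Hoxc8* had that order in clusters 1 and 2 and overlapped in cluster 4 (67.0 and 74.0 CPM in LI, 71.7 and 99.6 CPM in SI). *Hoxa6* was higher in LI in clusters 1 and 2 and overlapped in cluster 4 (5.36 and 4.62 CPM in LI, 3.08 and 5.17 CPM in SI). Among the unnamed clusters, cluster 3, led by *Bmp3* and *Col14a1* (2183 cells), held *Hoxa4* at 3.56 and 1.91 CPM in LI and at 128 and 46.5 CPM in SI, and *Hoxa5* at 24.1 and 25.6 CPM in LI and at 118 and 53.3 CPM in SI. There *Hoxc4* was at 5.54 and 6.15 CPM in LI and 39.4 and 28.1 CPM in SI, *Hoxc5* at 2.37 and 3.39 CPM in LI and 26.1 and 18.8 CPM in SI, and *Hoxc8* at 31.2 and 33.3 CPM in LI and 37.2 and 49.0 CPM in SI. *Hoxa6* was again higher in LI (9.49 and 5.93 CPM, against 5.08 and 3.40 CPM in SI), and the other 7 members were each higher in both SI libraries of this cluster. For single clusters the share of all genes with that order was not counted, so this number has no background to be set against.

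Unnamed cluster 8, led by *Foxd1* and *Foxc2* (393 cells), split its SI libraries. SI replicate 1 had *Hoxa4* at 130 CPM and *Hoxa7*, *Hoxc6* and *Hoxc8* at 3.24, 0 and 6.48 CPM, which rest on 22 cells and on 40, 1, 0 and 2 UMIs, whereas SI replicate 2 had 4.81, 23.3, 36.9 and 32.9 CPM of these genes. The cluster has *Barx1*, a stomach marker, among its leading genes, and whether cells from outside the intestine have a part in these values was not tested.

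To contrast the clusters as wholes, the UMIs of the 4 *Hoxc* members were taken as a share of the UMIs of all 8. In FB-like cells this share was 46.8% and 53.5% in LI and 57.7% and 69.1% in SI, and in mesothelial-like cells 47.8% and 54.9% in LI and 69.9% and 76.2% in SI. SI lay above LI in both classes, with means higher by 13.2 and 21.7 percentage points. In SMC-like cells the share was 38.7% and 54.1% in LI and 47.0% and 59.5% in SI, so that the regions overlapped. In neural-like cells it was far lower, at 20.4% and 10.0% in LI and at 22.2% and 16.5% in SI, again with overlap. The lowest Wilson bound (95%) among libraries of the other classes was 35.7% and the highest in neural-like cells 27.2%, which covers counting error only. After thinning to 3000 UMIs a cell, LI replicate 1 of neural-like cells was at 31.1% (19.5% to 45.7%, on 31 *Hoxa* and 14 *Hoxc* UMIs), and its interval reached into the range of the other classes. No test was run on these shares. A UMI counts a transcript once whatever its length, but capture can differ between genes, so the share is read between libraries and classes and not as a ranking of genes.

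The sums of each cluster were also compared between regions. In FB-like cells the *Hoxc* members summed to 105 ± 24.4 CPM in LI (SD, n = 2) and 232 ± 1.41 CPM in SI, whereas the *Hoxa* members summed to 103 ± 4.81 and 137 ± 48.1 CPM, with overlapping regions. SI replicate 1 had 171 CPM of *Hoxa* and SI replicate 2 had 103 CPM. In SMC-like cells the *Hoxc* sum was 83.6 ± 31.7 CPM in LI and 193 ± 11.3 CPM in SI, and the *Hoxa* sum was 93.4 ± 5.16 and 172 ± 50.2 CPM. In mesothelial-like cells the *Hoxa* sum was 84.2 ± 3.89 CPM in LI and 101 ± 19.5 CPM in SI, with regions that overlapped once doublets were kept, and the *Hoxc* sum was 90.3 ± 22.2 CPM in LI and 274 ± 10.6 CPM in SI, and in neural-like cells 13.2 ± 1.06 and 81.6 ± 7.07 CPM, while the *Hoxa* sum of neural-like cells was 82.8 ± 40.0 CPM in LI and 352 ± 120 CPM in SI. The sums of both clusters were thus higher in both SI libraries than in both LI libraries among SMC-like, mesothelial-like and neural-like cells, and among FB-like cells only the *Hoxc* sum was.

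**Figure D4:**
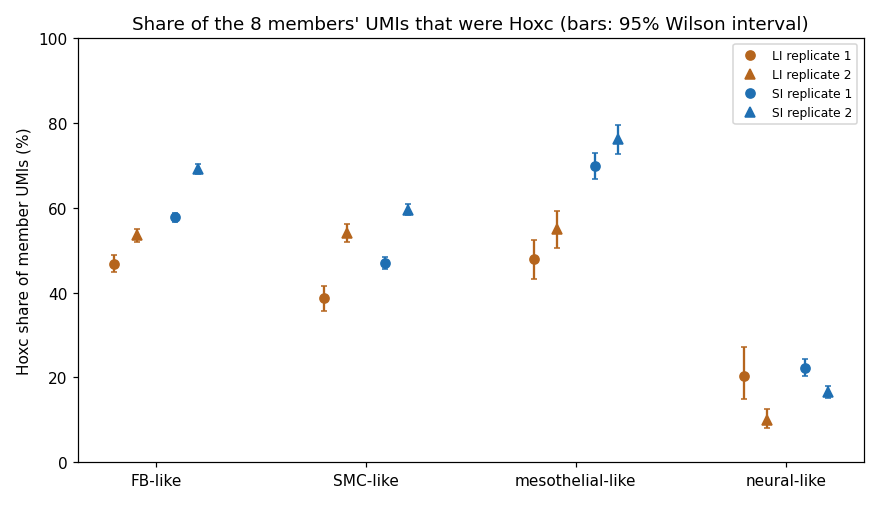
Share of the UMIs of the 8 members that came from the *Hoxc* genes (percent), by class and library, with 95% Wilson intervals. Neural-like libraries sit between 10.0% and 22.2%, all below the libraries of the other classes, and SI sits above LI in FB-like and mesothelial-like cells.

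Detection in single cells followed the summed levels. Each cell was thinned to 3000 UMIs, which left out 532 and 71 FB-like cells of the LI libraries and 22 and 28 of the SI libraries. A UMI of any *Hoxc* member was then found in 20.5% and 28.9% of FB-like cells in LI and in 45.8% and 46.6% in SI (without thinning 27.4%, 50.2%, 78.4% and 76.6%). A UMI of any *Hoxa* member was found in 23.1% and 26.7% in LI and in 36.9% and 24.1% in SI (without thinning 31.0%, 51.8%, 69.8% and 52.7%). At 3000 UMIs the *Hoxc* shares separated the regions and the *Hoxa* shares overlapped, while without thinning both separated the regions.

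The strongest detection was in neural-like cells, where 8.02% and 16.9% of LI cells and 38.9% and 60.3% of SI cells had a *Hoxa5* UMI at 3000 UMIs (95% Wilson intervals 33.7% to 44.3% and 55.6% to 64.8% for the SI libraries). Without thinning the shares were 25.5%, 55.3%, 77.3% and 89.9%. *Hoxc8* was the other way round, with 9.98% and 17.1% of FB-like cells in LI and 22.8% and 25.3% in SI, and 30.7% and 35.9% of mesothelial-like cells in SI. Among neural-like cells 0.472%, 0%, 0.940% and 0.234% had a *Hoxc8* UMI. For *Hoxa6* 0 of 212, 261, 319 and 428 neural-like cells had a UMI.

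*Hoxa6*, *Hoxa7*, *Hoxc6* and *Hoxc8* were each in 1.42% of neural-like cells or less in each library. The medians were 11107.5 to 19853 UMIs in neural-like and 4197 to 9277 UMIs in FB-like cells before thinning, so that thinning would leave less free RNA in neural-like cells and these shares are no upper limit for FB-like cells. Above them were *Hoxa7* in 11.1% to 14.0%, *Hoxc6* in 8.51% to 15.8% and *Hoxc8* in 9.98% to 25.3% of FB-like cells, while *Hoxa6* was in 3.90% and 3.31% of LI cells and 1.05% and 1.35% of SI cells, and what part of these free RNA gave was not tested. For *Hoxa4*, *Hoxa5*, *Hoxc4* and *Hoxc5* every class had UMIs, so no class without expression was at hand. *Hoxa4* was in only 1.37% and 1.63% of FB-like cells in LI, and whether free RNA gave these was not tested.

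**Figure D5:**
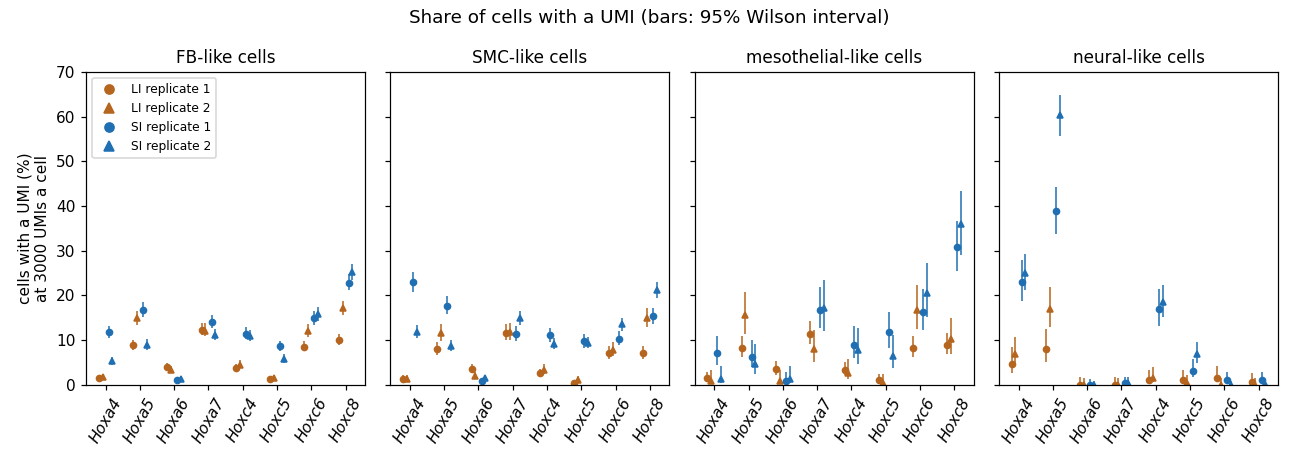
Percent of cells with at least 1 UMI of each member after thinning every cell to 3000 UMIs, by class and library, with 95% Wilson intervals. *Hoxa5* reached 60.3% in neural-like cells of SI replicate 2, *Hoxc8* reached 35.9% in mesothelial-like cells of SI replicate 2, and *Hoxa6*, *Hoxa7*, *Hoxc6* and *Hoxc8* lay near 0% in neural-like cells.

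Whether *Hoxa* and *Hoxc* transcripts were found in the same FB-like cells was described per library at 3000 UMIs. In LI replicate 1, 25.7% of cells with a *Hoxc* UMI and 22.4% of the other cells had a *Hoxa* UMI, and in LI replicate 2 these were 30.5% and 25.1%. In SI replicate 1 they were 34.0% and 39.3%, and in SI replicate 2 24.8% and 23.5%. The odds ratios were 1.20, 1.31, 0.796 and 1.07, on both sides of 1. In SMC-like cells they were above 1 in both LI libraries (1.66 and 1.44) and below 1 in both SI libraries (0.863 and 0.823), also at 2000 UMIs (1.53 and 1.78 against 0.918 and 0.875). In such sparse counts a weak relation is no finding.

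Over the 8 groups of class and region the order of the levels differed between members. *Hoxc8* ran from 148 CPM (131 and 164) in mesothelial-like cells of SI through 108 CPM in FB-like and 78.1 CPM in SMC-like cells of SI to 53.6, 42.5 and 37.3 CPM in FB-like, SMC-like and mesothelial-like cells of LI, with 1.37 and 0.512 CPM in neural-like cells of SI and LI. Its 3 highest groups each lay above the next beyond the spread of libraries, whereas its 3 LI groups overlapped as neighbours. *Hoxc4* ran from 63.9 CPM in neural-like cells of SI over 39.6, 38.9 and 35.0 CPM in FB-like, SMC-like and mesothelial-like cells of SI, which overlapped, to 13.4 CPM or less in all LI groups. *Hoxc5* had its 4 SI groups on top, from 32.4 CPM in SMC-like to 15.4 CPM in neural-like cells, and the first 3 overlapped as neighbours only.

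*Hoxc6* ran from 62.4 CPM in mesothelial-like and 58.4 CPM in FB-like cells of SI, which did not overlap, to 28.4 CPM in SMC-like cells of LI, with the neural-like groups under 2 CPM. *Hoxa5* had 1 step among its 7 pairs of neighbours, from 264 CPM in neural-like cells of SI to 58.4 CPM in neural-like cells of LI, and all lower groups, down to 25.8 CPM, overlapped with their neighbours. *Hoxa4* also had 1 step, from 14.9 CPM in mesothelial-like cells of SI to 5.46 CPM in SMC-like cells of LI, which parted LI groups other than neural-like cells (22.9 CPM) from the rest. *Hoxa7* ran only from 57.6 to 37.6 CPM over the 6 groups that were not neural-like. *Hoxa6* ran from 11.4 CPM in FB-like cells of LI to 2.72 CPM in mesothelial-like cells of SI over the same groups. *Hoxc8* thus had 5 steps among 7 pairs of neighbours, *Hoxc4* and *Hoxc6* 3 each, *Hoxc5* 2, and the *Hoxa* members 1 or 2. Such steps were not counted over all genes.

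The paralogues of the other clusters in groups 4 to 8 split by cluster in FB-like cells. Of 7 *Hoxb* and *Hoxd* genes on the list, all were called in FB-like cells, with 5 higher in SI and 2 in LI. *Hoxb8* (6.29 and 5.34 CPM in LI, 44.7 and 38.6 in SI) and *Hoxb7* (6.37 and 5.60 CPM in LI, 41.3 and 31.5 in SI) rose in SI, and *Hoxd4* fell (50.4 and 51.9 CPM in LI, 2.45 and 3.01 in SI). *Hoxd4* thus ran against its paralogues *Hoxa4* and *Hoxc4* in FB-like cells, but not in neural-like cells, where it was at 66.7 and 94.6 CPM in LI and at 169 and 187 CPM in SI (1.07 ± 0.20, adjusted p = 0.080). In SMC-like cells the counts were again 5 and 2, in mesothelial-like cells 3 and 1 of 7, and in neural-like cells 2 and 0 of 6 tested, where DESeq2 called 5.

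Of the 9 TALE cofactors 0 were called between regions in FB-like cells by edgeR or by DESeq2, and 0 had an unadjusted p under 0.05. The smallest adjusted p were those of *Meis2* (938 and 1160 CPM in LI, 674 and 808 in SI, adjusted p = 0.42), *Pknox2* (0.68) and *Pbx4* (0.69). In SMC-like, mesothelial-like and neural-like cells edgeR also called 0, with 1, 1 and 2 genes at an unadjusted p under 0.05, and DESeq2 called 0, 1 and 0. Of 18 listed regulators of *Hox* genes, among them Polycomb and Trithorax proteins and retinoic acid receptors, 15 were tested and 0 called by edgeR in each class, with 2 in each at an unadjusted p under 0.05. DESeq2 called 1 of them in neural-like cells and 0 in the other classes. *Gdf11*, a secreted factor known for setting the level of posterior *Hox* genes along the trunk, was at 23.2 and 21.0 CPM in LI against 10.6 and 13.9 CPM in SI of FB-like cells (adjusted p = 0.16), *Cbx2*, a Polycomb subunit, at 42.4 and 33.2 against 22.8 and 18.9 CPM (adjusted p = 0.17), and *Rara* at 33.2 and 31.1 against 40.3 and 34.8 CPM (adjusted p = 0.43). For these lists a p that missed the threshold does not show equal levels.

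Over the 16 sums of class and library, the non-*Hox* genes whose log2(CPM + 1) followed the summed *Hoxa* members most closely were *Cdkn1b* (Pearson r = 0.92), *Dhrs3* (0.89), *Smug1* (0.86), *Mrpl39* (0.85) and *Dvl1* (0.82), of 13243 genes compared. *Dhrs3*, which encodes an enzyme of retinoid metabolism, was at 3.38 and 16.3 CPM in LI against 51.4 and 109 CPM in SI of neural-like cells. The closest to the summed *Hoxc* members were *Scmh1* (0.92), *Rspo3* (0.92), *Rilpl2* (0.91), *Efnb2* (0.91) and *Fnta* (0.91). *Rspo3*, a secreted enhancer of Wnt signalling, was at 57.5 and 78.1 CPM in LI against 163 and 199 CPM in SI of FB-like cells, and at 2.11 to 15.1 CPM in neural-like cells. The summed *Hoxa* and *Hoxc* levels themselves had a Pearson r of 0.24 over the 16 sums. The sums share 4 libraries, so these values are a description.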

How the data were processed

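Per the labels, libraries were made on the 10x Genomics Chromium platform. The authors ran Cell Ranger (3.1.0 per the submitters' processing notes) with mm10 as the genome. The deposited values are raw counts for cells called by that tool. Replicate files were kept apart.

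Cells with at least 1000 genes and under 10% mitochondrial UMIs were kept. Scrublet (scanpy 1.11.5) marked only 1 to 6 cells a library by its own threshold, so 0.8% of cells per 1000 with the highest scores were removed. Libraries were integrated in Seurat 5.3.0 (R 4.3.3) on 1973 variable genes with all *Hox* genes left out, corrected for cell cycle scores and clustered at resolution 0.3 on 30 principal components. A class needed 3 or more of its markers among the 10 leading genes by fold, with no more than 1 of another class. Clusters with no such marker and at least 3 FB markers detected in 10% of cells were FB-like, and a cluster with over 90% of its cells from 1 library stayed unnamed. This rule was set after the clusters were seen, and the classes can differ from those of the study for that reason.

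Raw counts were summed per class and library and tested with edgeR 4.0.16 (quasi-likelihood, TMM, default filter on low counts, Benjamini-Hochberg adjustment over all genes tested), called at an adjusted p under 0.05, with DESeq2 1.42.0 as an alternative. Class comparisons and interactions had the library as a block. The SE is the size of the log2 fold change divided by the root of its F statistic. CPM divides by all UMIs of the sum. Intervals are 95%. The tests were also run on simulated counts, drawn independently for each sum without a library effect shared by classes. The outcome of that run is not reported here. Every member is described, with 3 genes of each other list by smallest p in FB-like cells and 5 genes of closest pattern for each cluster; class and interaction values are given for members at an unadjusted p under 0.1. Other genes named with values were chosen after their values were seen. The members and lists were chosen with earlier results of these data known. Figures used Python 3.11.15 and matplotlib 3.10.9.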

Additional observations from a re-analysis of the deposited data

Results flagged for a closer look

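The difference between regions itself differed from that in FB-like cells, by the interaction of class and region in edgeR, for *Hoxc8* in mesothelial-like cells (log2 0.90), for *Hoxa5* in neural-like cells (1.72) and for *Hoxc4* in neural-like cells (1.05). Their adjusted p were 0.044, 0.017 and 0.0027. All 3 were in the direction of SI, and in each the SI libraries lay above the LI libraries in the named class. *Hoxc8* went from 37.3 CPM (mean of LI) to 148 CPM (mean of SI) in mesothelial-like cells and from 53.6 to 108 CPM in FB-like cells. *Hoxa5* went from 58.4 to 264 CPM in neural-like cells and from 39.6 to 50.7 CPM in FB-like ones, and *Hoxc4* from 9.25 to 63.9 CPM and from 13.4 to 39.6 CPM. None of these calls held in every fit that left out a library.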

How the results depend on the processing

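Of 445 values of single members under another setting, 387 kept their direction and their side of the threshold, 25 lost a call, 31 gained one and 2 turned direction. These 2 were *Hoxa5* in FB-like cells without SI replicate 1 (-0.10, up to 0.94 without other libraries) and in mesothelial-like cells without LI replicate 2 (0.00015, down to -0.88 without SI replicate 1). *Hoxa4*, *Hoxc4* and *Hoxc5* were called in FB-like and SMC-like cells under every alternative run.

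Members called between regions in SMC-like cells went from 3 to 7 without the filter on low counts. Leaving out 1 library gave 3 to 6 in SMC-like, 3 to 5 in mesothelial-like and 0 to 4 in neural-like cells, 0 to 1 for SMC-like and for mesothelial-like against FB-like cells, and for interactions 0 to 1 (mesothelial-like) and 1 to 2 (neural-like); the lone library of a region is then assumed to vary like the others. Thinning to 3000 UMIs gave 2 between regions in mesothelial-like and 3 in neural-like cells, 1 (*Hoxa4*) for SMC-like and 0 for mesothelial-like against FB-like cells, and 0 for the mesothelial-like interaction. That interaction gave 0 by DESeq2 and 2 without the filter, and the SMC-like one 1 without it. The cause was not tested, beyond fewer samples or UMIs.

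Replicate numbers are shared between regions, but no label says that a number marks a shared experiment. Deviations of same-numbered libraries correlated at 0.23 to 0.37 over genes, with 2 pairs. With the replicate block 7 members were called in SMC-like and 6 in mesothelial-like cells, and the counts of all genes went from 371 to 978 (FB-like), 376 to 1672 (SMC-like), 96 to 748 (mesothelial-like) and 35 to 408 (neural-like).

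Counts of all genes without the filter were 1115, 1278, 419 and 362 in these classes. DESeq2 called 103 in neural-like cells and 61 were called there with doublets kept. Without LI replicate 2 the counts were 1574, 1653, 827 and 1473, without SI replicate 1 they were 576, 700, 152 and 138, and without LI replicate 1 they were 734, 492, 143 and 246. Without SI replicate 2 they were 510, 422, 88 and 0. At 2000 UMIs a cell, *Hoxa* detection in FB-like cells was 18.8% in LI, and *Hoxc* detection 18.1% in LI and 35.1% in SI, against 24.9%, 24.7% and 46.2% at 3000. In SMC-like cells the difference between regions in the *Hoxc* share went from 6.85 to 3.2 percentage points with *Hoxc5* left out. In neural-like cells it went from 4.15 to 0.945 after thinning to 3000 UMIs a cell. SI stayed above LI in FB-like and mesothelial-like cells under each setting, and an SD of 2 libraries is too loose a bar to judge these shifts.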
